A study of Bos taurus with 6 samples.

Results

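The HSP70 family chaperones measured here are HSPA1A, HSPA8, HSPA2, HSPA14 and HSPH1, in white blood cells of heifers of the Sanhe cattle breed before and after severe cold. A probe set, the group of array probes that reports 1 transcript, was taken as a member where its annotation gave exactly 1 of these gene symbols. This rule found 10 of the 12763 probe sets with deposited values: 5 for HSPA1A, 2 for HSPA14, and 1 each for HSPA8, HSPA2 and HSPH1. The before group holds 3 arrays of blood drawn before cold, numbered 4, 5 and 6. The after group holds 3 arrays, numbered 1, 2 and 3, of blood labelled as after cold exposure. The animals stood outdoors at -32 °C for 3 hours and then spent 15 hours in a cowshed at 5 °C. The labels do not say at which point of this sequence the blood was drawn. All were healthy female heifers of 1 breed, of like genetic background, weight and age per the design text, kept in the same cowshed on a total mixed ration. The 6 samples came from 3 animals chosen at random out of 30, and the labels do not say which arrays share an animal. The p-values below therefore treat the 6 arrays as separate, although every animal was sampled at both times.

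HSP70 proteins bind stretches of unfolded protein, and ATP binding and hydrolysis open and close their grip. J-domain proteins (the DNAJ family) bring clients and speed up hydrolysis, and nucleotide exchange factors such as the BAG proteins, HSPBP1 and the large HSP110 relatives release ADP and the client. HSPA1A is the form induced by heat and other stress through heat shock factors. HSPA8 (Hsc70) is the abundant constitutive form of the cytosol. HSPA2 is best known from the testis, HSPA14 is an atypical relative that works at the ribosome with a J-domain partner, and HSPH1 is an HSP110 that acts as an exchange factor.

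For none of the 10 probe sets did the comparison of blood after and before cold pass its threshold, given the spread between arrays. With limma, 0 of 10 passed an adjusted p of 0.05, against a background of 0% of all probe sets. At an unadjusted p under 0.05 there were also 0 of 10, against 0.494% of all. That share is far below the 0.05 that would pass on average with no change, so this count says little about the members. The mean was higher after cold in 7 of 10 member probe sets, against 52.4% of all, and lower in 3, against 47.6%. The median log2 change over the 10 was 0.31, against 0.02 over all probe sets; 5 of the 10 belong to a single gene, so they are not independent. No member reached a 1.5-fold change, which 7.04% of all probe sets did. The groups did not overlap in 2 of 10 members, both of HSPA1A and both higher after cold, against 4.38% of all probe sets in either direction and 2.07% in that direction. None was lower on all after arrays, against 2.31% of all.

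**Figure D1:**
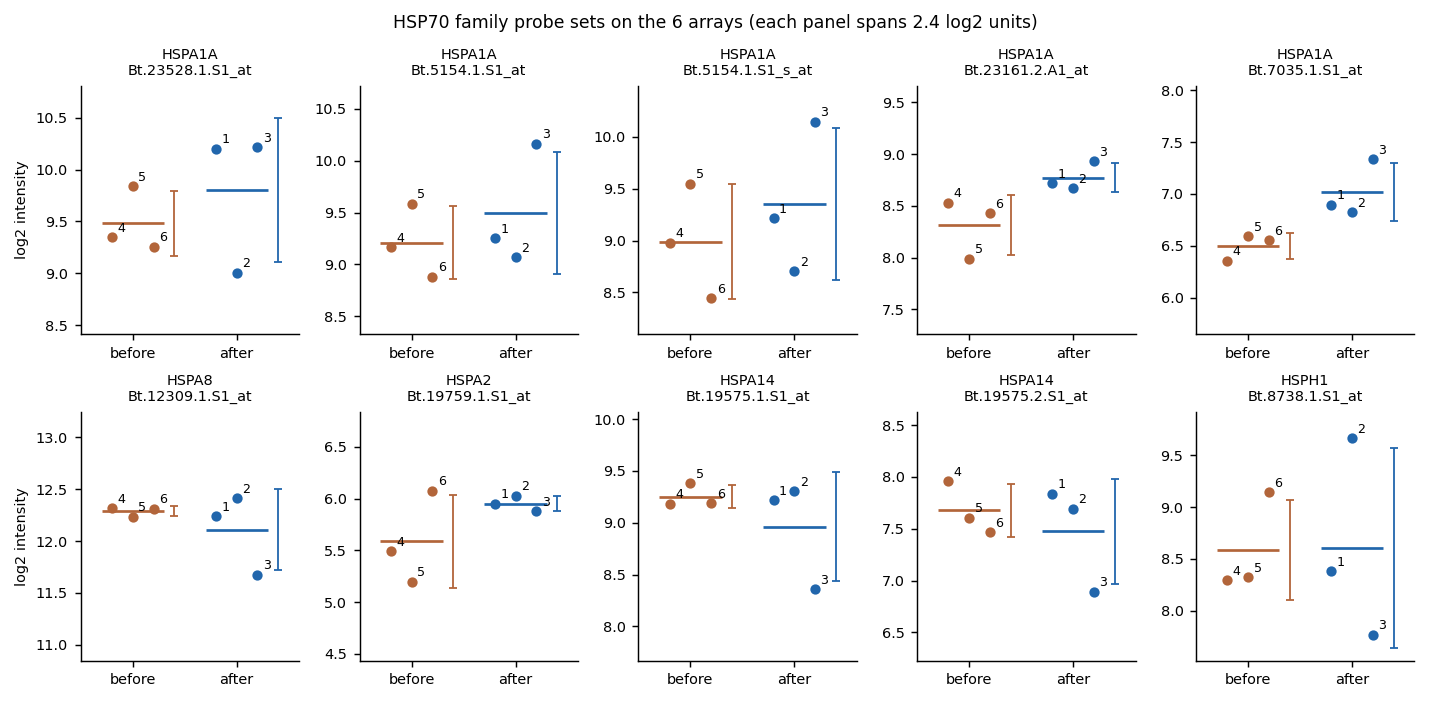
Log2 intensity (y axis) of the 10 member probe sets in each array of the before and after groups (x axis); points are single arrays with their numbers, bars the group means, and whiskers 1 SD (n = 3). The groups lie apart only in the HSPA1A probe sets Bt.23161.2.A1_at and Bt.7035.1.S1_at, and the after 3 array stands lowest for HSPA8, HSPA14 and HSPH1.

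HSPA1A, the stress-inducible member, had a higher mean after cold in each of its 5 probe sets, by 0.29 to 0.52 on the log2 scale (1.22-fold to 1.43-fold), with standard errors (SE) of 0.26 to 0.44. The probe set Bt.7035.1.S1_at read a log2 intensity of 6.90, 6.82 and 7.33 on the after 1, 2 and 3 arrays, and 6.35, 6.59 and 6.55 on before 4, 5 and 6. Every after array was above every before array. By its mean this set is among the dimmest 50% of all probe sets. The change was 0.52 ± 0.26 (SE; 95% interval -0.08 to 1.12; limma, unadjusted p = 0.0807, adjusted p = 1.00). A change as high or higher was seen in 0.533% of all probe sets. For the other HSPA1A probe sets this share was larger, at 1.14% to 9.14%. The exact permutation test, two-sided, gave p = 0.1, which is the smallest that 3 arrays against 3 allow.

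The HSPA1A probe set Bt.23161.2.A1_at was also higher on every after array. It read 8.72, 8.67 and 8.93 after cold and 8.53, 7.99 and 8.43 before, with the gap between the lowest after value and the highest before value set by after 2 and before 4. Its change was 0.45 ± 0.26 (SE; 95% interval -0.15 to 1.06; limma, unadjusted p = 0.123, adjusted p = 1.00; exact permutation p = 0.1), and 0.29 without before 5.

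In the other 3 HSPA1A probe sets the groups overlapped. Bt.23528.1.S1_at, the one with the highest mean, read 10.20, 9.005 and 10.21 after cold and 9.35, 9.84 and 9.25 before. After 1 and after 3 were thus above all before arrays, and after 2 was below them all. Its change was 0.33 ± 0.38 (SE; limma, adjusted p = 1.00). It was 0.13 without after 1, 0.12 without after 3, 0.50 without before 5 and 0.21 without before 6. Without after 2 it was 0.73 ± 0.30 (limma, unadjusted p = 0.0357, adjusted p = 0.321), in a fit where 14.0% of all probe sets had an unadjusted p under 0.05. Bt.5154.1.S1_at read 9.25, 9.07 and 10.17 after and 9.17, 9.58 and 8.88 before. Bt.5154.1.S1_s_at read 9.21, 8.70 and 10.15 after and 8.98, 9.55 and 8.44 before. In both, after 3 was the highest array and before 6 the lowest. Their changes of 0.29 ± 0.36 and 0.36 ± 0.44 (SE) became -0.05 and -0.03 without the after 3 array.

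The 5 HSPA1A probe sets did not give the same pattern on every array. On after 3 all 5 were above their own means, by 0.38 to 0.97, and on before 4 and before 6 all 5 were below, the lowest by -0.73. They parted on before 5, where Bt.5154.1.S1_s_at stood at 0.38 above its mean and Bt.23161.2.A1_at at -0.55, the lowest array of that set. On after 2 the sets with overlapping groups were at -0.28 to -0.64 and those with separate groups at 0.07 and 0.12. The annotation ties Bt.5154.1.S1_at and Bt.5154.1.S1_s_at to gene identifier 281825, which has no entry in the RefSeq genes of the ARS-UCD2.0 assembly, and the other 3 sets to 282254, the current identifier of HSPA1A. That table lists both HSPA1B, the name of a near-identical copy, and HSPA2 among the synonyms of HSPA1A, so these names are not always kept apart. In Affymetrix naming the ending _s_at marks probes shared by several transcripts. Probe sequences were not used here, and whether the 5 sets tell the copies apart was not tested, so they are uncertain in that respect. HSPA1L, the next coding gene beside HSPA1A in the table, had no probe set with that symbol alone.

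**Figure D2:**
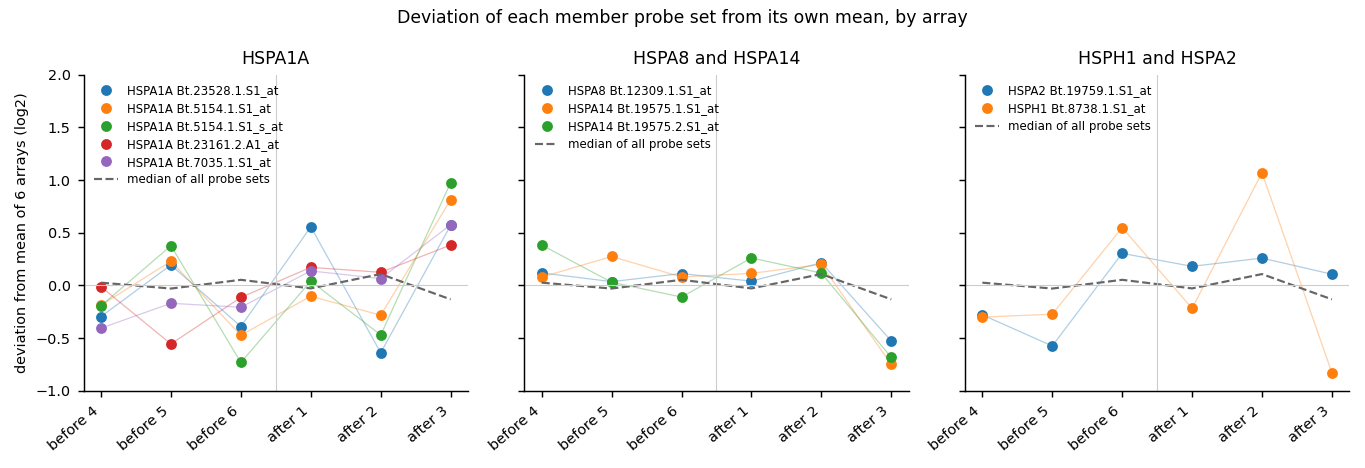
Deviation of each member probe set from its own mean over the 6 arrays (log2, y axis) by array (x axis, before arrays left of the grey line); points are arrays, pale lines only join points of 1 probe set, and the dashed line is the array median over all probe sets. HSPA1A is above its means on after 3 in all 5 probe sets, where HSPA8, HSPA14 and HSPH1 are at their lowest.

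HSPA8, the constitutive chaperone, was nearly level on 5 arrays. It read 12.24, 12.42 and 11.67 after cold and 12.32, 12.24 and 12.31 before. Before cold the SD was 0.05, and after cold it was 0.39, with the after 3 array alone below the rest. The change was -0.18 ± 0.28 (SE; 95% interval -0.82 to 0.46; limma, adjusted p = 1.00), and without the after 3 array it was 0.04.

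HSPA14, the ribosome-linked member, gave the same picture in both of its probe sets. Bt.19575.1.S1_at read 9.22, 9.30 and 8.36 after cold and 9.18, 9.38 and 9.19 before. Bt.19575.2.S1_at read 7.84, 7.69 and 6.89 after and 7.96, 7.61 and 7.47 before. On after 3 the sets were 0.75 and 0.68 below their own means, while after 1 and after 2 lay within the range of the before arrays. The changes were -0.29 ± 0.32 and -0.20 ± 0.32 (SE; limma, adjusted p = 1.00 for both), and without after 3 they were 0.01 and 0.09.

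HSPA2 was dim, and the one member that a filter on the dimmest 25% of probe sets removed. It read 5.95, 6.03 and 5.88 after cold and 5.49, 5.20 and 6.07 before. Arrays of the after group lay close together (SD 0.08), while those of the before group spread more widely (SD 0.45), with before 6 above all others. The change was 0.37 ± 0.29 (SE; 95% interval -0.31 to 1.04; limma, adjusted p = 1.00), and it was 0.17 without before 5 and 0.61 without before 6. Whether this level is above background was not tested, since no detection call was used.

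HSPH1, the HSP110 exchange factor, had the widest range of the 10 members, 1.90 log2 units, and hardly any difference in group means. It read 8.38, 9.67 and 7.77 after cold and 8.30, 8.32 and 9.15 before. Highest were after 2 and then before 6, and after 3 was the lowest, so both extremes were in the after group. The change was 0.02 ± 0.49 (SE; 95% interval -1.11 to 1.15; limma, adjusted p = 1.00). It was -0.51 without after 2 and 0.43 without after 3. The residual spread of HSPH1 was as large as or larger than that of 92.2% of all probe sets, while that of the HSPA1A set Bt.7035.1.S1_at exceeded that of 14.0%.

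**Figure D3:**
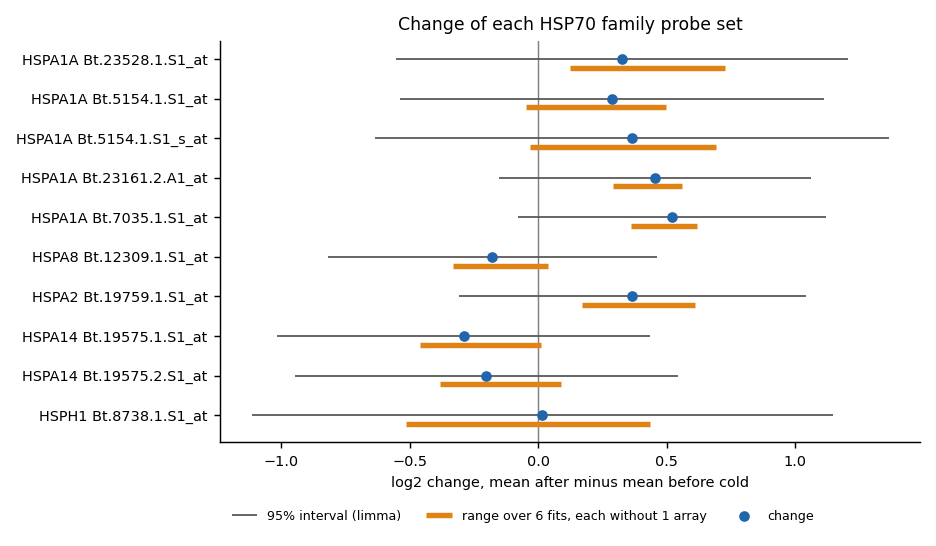
Log2 change, mean after minus mean before cold (x axis), of each member probe set (y axis); dots are the changes, thin lines the 95% intervals from limma, and thick bars the range over the 6 fits that each leave out 1 array. Each 95% interval includes 0, and the thick bars stay above 0 for HSPA2 and for 3 of the HSPA1A probe sets.

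The spread between arrays ran across the groups. Over the 10 member probe sets, the arrays most alike were after 2 and before 6, with a root mean square difference of 0.25 log2 units, and the least alike were after 2 and after 3, both of the after group, at 1.04. Over all probe sets after 2 and before 6 were likewise the closest, at 0.19, followed by after 1 and before 4, at 0.33. Whether the arrays of such a pair share an animal is not in the labels and was not tested. The main p-values leave out any such pairing. For Bt.7035.1.S1_at the SE was 0.26 with the arrays taken as separate. It was 0.17 to 0.41 over the 6 possible matchings of arrays into animals. The median log2 intensity of all probe sets was highest on after 2 (7.49) and lowest on after 3 (7.25). HSPH1 was high and low on those same arrays, and HSPA1A was above its means on after 3. The part of these array differences in the members' values was not tested beyond the fits with other normalizations. Under median centring, quantile and cyclic loess normalization each of the 10 members kept the sign of its change, and 2 of 10 had separate groups in each, against 5.03%, 5.12% and 5.12% of all probe sets.

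Because a shift common to an array cancels in the difference of 2 genes on that array, the members were also compared with each other. Opposite deviations do not cancel. On after 3, Bt.23528.1.S1_at of HSPA1A was at 0.57 and HSPA8 at -0.53 from their means. The SD of their difference in the after group was 1.00, against 0.69 and 0.39 for each alone. For each gene the probe set with the highest mean was used, and all 10 pairs were tested by an exact permutation test, two-sided. The change of HSPA2 exceeded that of HSPA14 by 0.66, and that of HSPA1A exceeded HSPA14 by 0.62 and HSPA8 by 0.50. Without the after 3 array these differences were 0.39, 0.11 and 0.083, and without after 2 they were 0.79, 1.19 and 1.06. The change of HSPA8 minus that of HSPA2 was -0.54, and it was -0.36 without after 3 and -0.66 without after 2. Leaving out before 5 gave 0.39 for HSPA2 and HSPA14. The exact permutation p-values over the 10 pairs ran from 0.3 to 1, and from 0.75 to 1 after Benjamini-Hochberg adjustment. No pair reached 0.1. HSPA8 and HSPA14 were the pair whose difference varied least, with an SD of 0.15 in the after group and 0.16 in the before group, and a difference in change of 0.11. For HSPA1A and HSPH1 the SD was 1.64 after and 0.72 before. A p that misses the threshold with 3 arrays a group does not show that the members moved alike.

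Other relatives and partners of the HSP70 cycle were taken from lists chosen for their roles, with 31 of 50 genes measured by a probe set of that symbol alone. With limma 0 of 31 passed an adjusted p of 0.05, and 0 had an unadjusted p under 0.05. The mean was higher after cold in 15 and lower in 16, with a median change of -0.03, against 0.05 over all 6337 genes, of which 56.3% were higher. The groups overlapped in all 31, whereas they were apart in 5.02% of all genes. These counts use the probe set with the highest mean of each gene.

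Of the other family members, HSPA4 (an HSP110) had a change of -0.33 ± 0.41 (SE), HSPA5 (BiP of the endoplasmic reticulum) -0.14 ± 0.31, HSPA9 (mortalin of the mitochondria) -0.11 ± 0.32 and HYOU1 (the HSP110 of the endoplasmic reticulum) 0.09 ± 0.31. Of the J-domain partners 4 of 11 had a higher and 7 a lower mean, with a median of -0.25. DNAJB9 and DNAJC3, partners of HSPA5, were at -0.69 ± 0.33 and -0.45 ± 0.33, DNAJC10, a reductase of the endoplasmic reticulum, at -0.51 ± 0.38, and DNAJA1, a cytosolic partner of HSPA8, at -0.56 ± 0.42. DNAJB1, the heat-inducible partner of HSPA1A, was picked for its role and not its p, and was at -0.03 ± 0.46 in one probe set and 0.34 ± 0.28 in another.

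The nucleotide exchange factors had a higher mean in 7 of 8, with a median change of 0.15. BAG2 was at 0.24 ± 0.28 (SE), BAG5 at 0.15 ± 0.28, HSPBP1 at 0.20 ± 0.40 and GRPEL1, the exchange factor of mitochondrial HSPA9, at 0.15 ± 0.27. The exception was GRPEL2 at -0.53 ± 0.35, with its other probe sets at -0.18 and -0.34. A second BAG2 probe set, Bt.10885.2.S1_at, differed by 0.49 ± 0.25 with separate groups, and it was noticed after its values were seen. Adaptors that pass clients on had a higher mean in 2 of 6, with CHORDC1, an HSP90 co-chaperone, at -0.70 ± 0.39 and ST13, which binds HSP70, at -0.36 ± 0.32. The HSP90 gene HSP90AA1, counted as lower, was at -0.16 ± 0.35 in the probe set used and at 0.14 ± 0.39 in another. Of the heat shock factors, HSF1, which drives the heat-induced genes, was at 0.29 ± 0.34 and HSF2 at -0.21 ± 0.37. None of these genes passed the limma threshold.

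**Figure D4:**
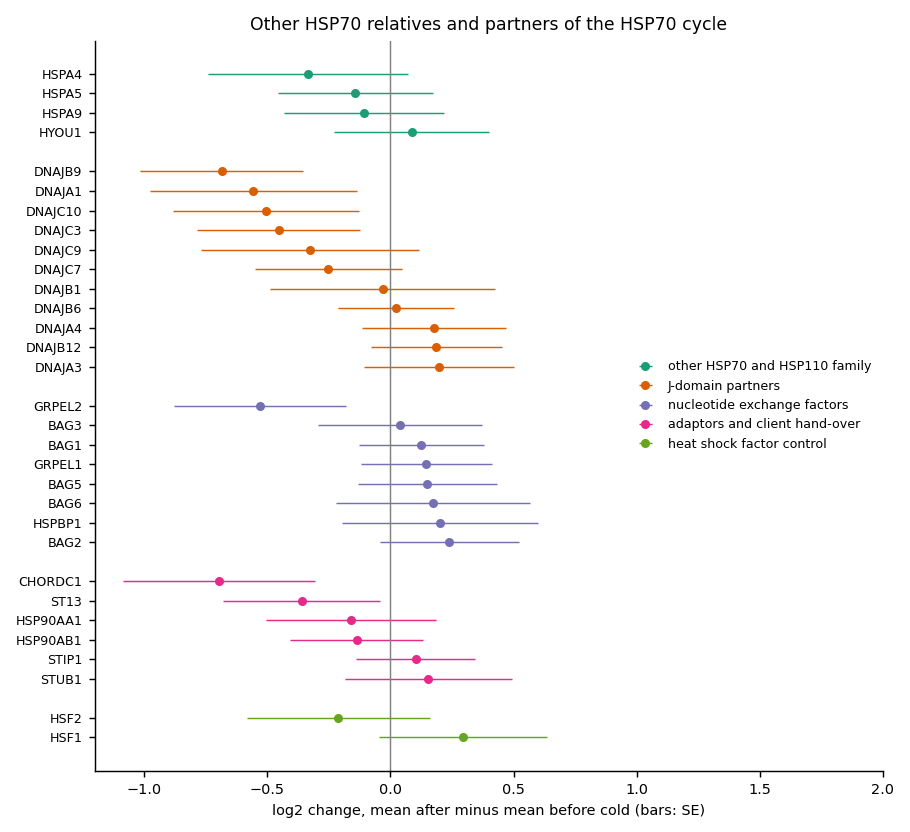
Log2 change, mean after minus mean before cold (x axis), with its SE, of 31 other HSP70 relatives and partner genes (y axis), coloured by role. Of the exchange factors 7 of 8 lie right of 0, of the J-domain partners 4 of 11, and none passed the limma threshold.

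The genes whose profile over the 6 arrays was most like that of a member were ranked by the root mean square difference of mean-centred log2 values, among genes with an SD of 0.5 to 2 times that of the member. For HSPA1A (Bt.23528.1.S1_at) they were LLPH (0.05), LSM8 (0.08) and LSM3 (0.08), the last pair being Lsm proteins of the splicing machinery. For HSPA8 they were S100A10 (0.04), DYNC1LI1 (0.05), a dynein chain, and the kinase gene FER (0.05). For HSPA2 they were PPFIA1 (0.06), CYP2U1 (0.08) and MTMR1 (0.09). For HSPA14 they were ATP5F1C (0.06), a subunit of ATP synthase, MRPL51 (0.06), of the mitochondrial ribosome, and RAN (0.06), the GTPase of nuclear transport. For HSPH1 they were SAV1 (0.11), CAMK2D (0.12) and ATAD2B (0.12). The LSM8 profile, as an example, was 0.63, -0.51 and 0.52 on after 1, 2 and 3 and -0.30, 0.13 and -0.46 on before 4, 5 and 6. These rankings were made among 3728 to 5376 candidate genes over only 6 arrays and are a description.

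Markers of blood cell types were read to check the label of white blood cells, with 30 of 50 markers in 8 lists measured. The T cell markers (7 of 8 measured) summed to an intensity of 11942 to 15615 after cold and 10980 to 17459 before, neutrophil markers (4 of 8) to 18833 to 24884 and 16382 to 24857, and B cell markers (4 of 6) to 5423 to 6501 and 5466 to 6499. NK and cytotoxic markers (5 of 6) summed to 1140 to 2275 and 1276 to 1955. Markers of red cells (2 of 6) summed to 4287 to 5046 and 3817 to 4990, and the platelet marker PF4 (1 of 5) was at 5480 to 6388 and 5762 to 7043. Eosinophil markers (2 of 5) summed to 470.4 to 693.7 after and 685.4 to 1006 before. The monocyte markers (5 of 6) summed to 4156 to 5391 after and 6042 to 7985 before, so their sums did not overlap between groups. Most of this sum is CTSS, whose log2 intensity was 11.77, 12.11 and 11.21 after cold and 12.21, 12.58 and 12.34 before. MSR1 also had separate groups, while CD14, CSF1R and CD68 overlapped. Over all 30 markers 4 had separate groups, where 5.02% of all genes did. Besides CTSS and MSR1 these were the cytotoxic marker GZMB, lower after cold (-0.59 ± 0.27, SE), and the B cell marker POU2AF1, higher (0.46 ± 0.28). The median deviation of the monocyte markers from their own means overlapped too, at -0.27, -0.03 and 0.42 on after 1, 2 and 3 and 0.07, 0.63 and -0.39 on before 4, 5 and 6. The lowest marker intensity was 16.4, where the lowest of all probe sets on an array was 3.91 (after 1) to 4.63 (before 6). As no probe set reads 0 here, whether each marker is above background was not tested. In bulk blood, fewer cells of a type and less RNA per cell cannot be told apart, and the part of cell composition in the HSP70 values was not tested.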

How the data were processed

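Total RNA of white blood cells, biotin-labelled, was read on an Affymetrix bovine array, 3 arrays after and 3 before cold. The deposited table gives an intensity, not log-transformed, for each probe set and array, and the submitters' processing notes name GCOS and RMA with no version. The genome build is not given in the sources used here. Of the 12763 probe sets, 8125 had 1 gene symbol, 56 several and 4582 none in the platform annotation. The number of control probe sets among them was 0, so the deposited values may not hold the whole array. Shares of all probe sets and genes not measured refer to the deposited values only. Of the 8125, 8109 matched a gene identifier in the RefSeq table of ARS-UCD2.0, which was used only for names and neighbours.

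Intensities were taken to log2 with no further normalization, pseudocount or filter. Each probe set was tested with limma 3.58.1 in R 4.3.3 (lmFit and eBayes, two-sided, no block), with Benjamini-Hochberg adjustment over all probe sets and a threshold of 0.05. The script was tested on simulated data with independent noise and changes larger than any in the deposited values. That test does not tell how well changes of the members' size are found. Where a gene has several probe sets, all are given for the members, and the one with the highest mean stands for other genes. All members are named, other genes by role with up to 6 a list by smallest p (beside them DNAJB1, HSP90AA1 and, for some genes, further probe sets), and the 3 most alike genes per member. The members, lists and alternatives were chosen with earlier results of these data known. No library depth exists for arrays, and their number limits the precision. Alternatives were dim-probe filters, variance models, array weights, 3 normalizations, leaving out arrays, and a block for each of the 6 possible matchings of arrays. No sequences are printed.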

Additional observations from a re-analysis of the deposited data

How the results depend on the processing

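In every setting run, 0 probe sets passed a limma adjusted p of 0.05. At an unadjusted p under 0.05 in place of it, with all 6 arrays and no alternative, 63 did (0.494% of all). That is fewer than would pass on average with no change. The smallest adjusted p of a member was 0.321. Of 207 member values under alternatives, 9 changed sign. Leaving out each array in turn gave changes of -0.049 to 0.50 for HSPA1A Bt.5154.1.S1_at, -0.032 to 0.69 for Bt.5154.1.S1_s_at, -0.33 to 0.039 for HSPA8, -0.46 to 0.012 and -0.38 to 0.088 for the HSPA14 sets, each turned without after 3, and -0.51 to 0.43 for HSPH1, turned without after 2, before 4 or before 5. HSPA2 and the HSPA1A sets Bt.23528.1.S1_at, Bt.23161.2.A1_at and Bt.7035.1.S1_at kept their sign in every setting that held them.

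The number of members at an unadjusted p under 0.05 was 1 with array weights (5.19% of all probe sets), 0 to 1 on leaving out each array (1 without after 2, with 14.0% of all), and 1 with the replicate block for the matching 1-4, 2-6, 3-5 (9.15% of all). With array weights and with that block it was Bt.7035.1.S1_at, at 0.75 (limma, unadjusted p = 0.0231, adjusted p = 0.906) and 0.52 (limma, unadjusted p = 0.0169, adjusted p = 0.492). In the block of each other matching the number was 0 (0.188% to 5.14% of all), and the limma p of that set over the 6 matchings ran from 0.0169 to 0.223. Which matching is true is not in the labels. The array weights ran from 0.0019 (after 1) to 30.7 (before 4), and their estimate stopped before convergence. Before 5 and before 6 had weights of 3.62 and 2.05. The weighted fit thus made almost no use of after 1, and before 4 dominated the before group.

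The median change over members was 0.15 without the dimmest 50%, where 8 of 10 members remained, and 0.10 to 0.41 on leaving out each array. Without after 2 and before 6 together, chosen after the data were seen, 4 members had separate groups, against 45.2% of all probe sets, and HSPH1 was at -0.24. With each gene's probe sets averaged, the change of HSPA1A minus that of HSPA2 was 0.025 in place of -0.039 (exact permutation p = 1). Causes were not tested, except that fewer arrays or members were used where named. What dim signal limits was not tested.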
